A study of Mus musculus with 22 samples.

Results

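Duct spots are the positions on spatial sections of the mouse mammary gland where transcripts of epithelial cells were concentrated. A spot was called a duct spot when it held at least 3 unique molecular identifiers (UMIs, each standing for 1 captured molecule) and at least 0.3% of its UMIs from 7 epithelial genes, Epcam, Krt8, Krt19, Krt7, Cldn7, Krt5 and Krt14. The rule found 607 duct spots among 24815 spots under tissue, and they were compared within each section with the 21629 other spots of at least 500 UMIs. The remaining spots outside the ducts, 2579 in all, were shallower and were left out. The study compared the mammary gland at 3 and at 18 months of age in C57BL/6J mice, an inbred strain, all of them virgin females. The spatial data are 2 formalin-fixed, paraffin-embedded sections per age read with probes on Visium CytAssist slides. All animals were untreated virgins of 1 strain, so the ducts are those of a gland that had never lactated. The labels do not say whether the 2 sections of an age came from separate mice, so the p-values measure the spread between sections, which may be technical. A spot is a small region of a 15 µm section that can hold several cells.

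The mammary epithelium is a branching tree of ducts with an inner luminal layer and an outer myoepithelial layer, set on a basement membrane inside a pad of fat and connective tissue. Luminal cells are commonly divided into hormone-sensing cells, which respond to ovarian hormones and prolactin and signal to their neighbours, and secretory or alveolar-type cells, which carry the programme that makes milk in pregnancy and lactation. Myoepithelial cells contract in response to oxytocin and secrete much of the basement membrane.

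The duct spots lay in small patches. There were 162 and 180 duct spots at 3 months and, at 18 months, 63 and 202 duct spots. As a share of the spots of their section they made up 3.68 and 4.42% at 3 months and, at 18 months, 0.955 and 2.07%. Of the 607, 515 adjoined another duct spot, and the spots formed 213 patches, the largest of 18 spots. The share of duct spots among the neighbours of a duct spot was 34.8 and 37.8% at 3 months and, at 18 months, 28.7 and 31.2%. Among the neighbours of other spots it was 2.58 and 2.99% at 3 months and, at 18 months, 0.734 and 1.73%. The selection rule did not use position.

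**Figure D1:**
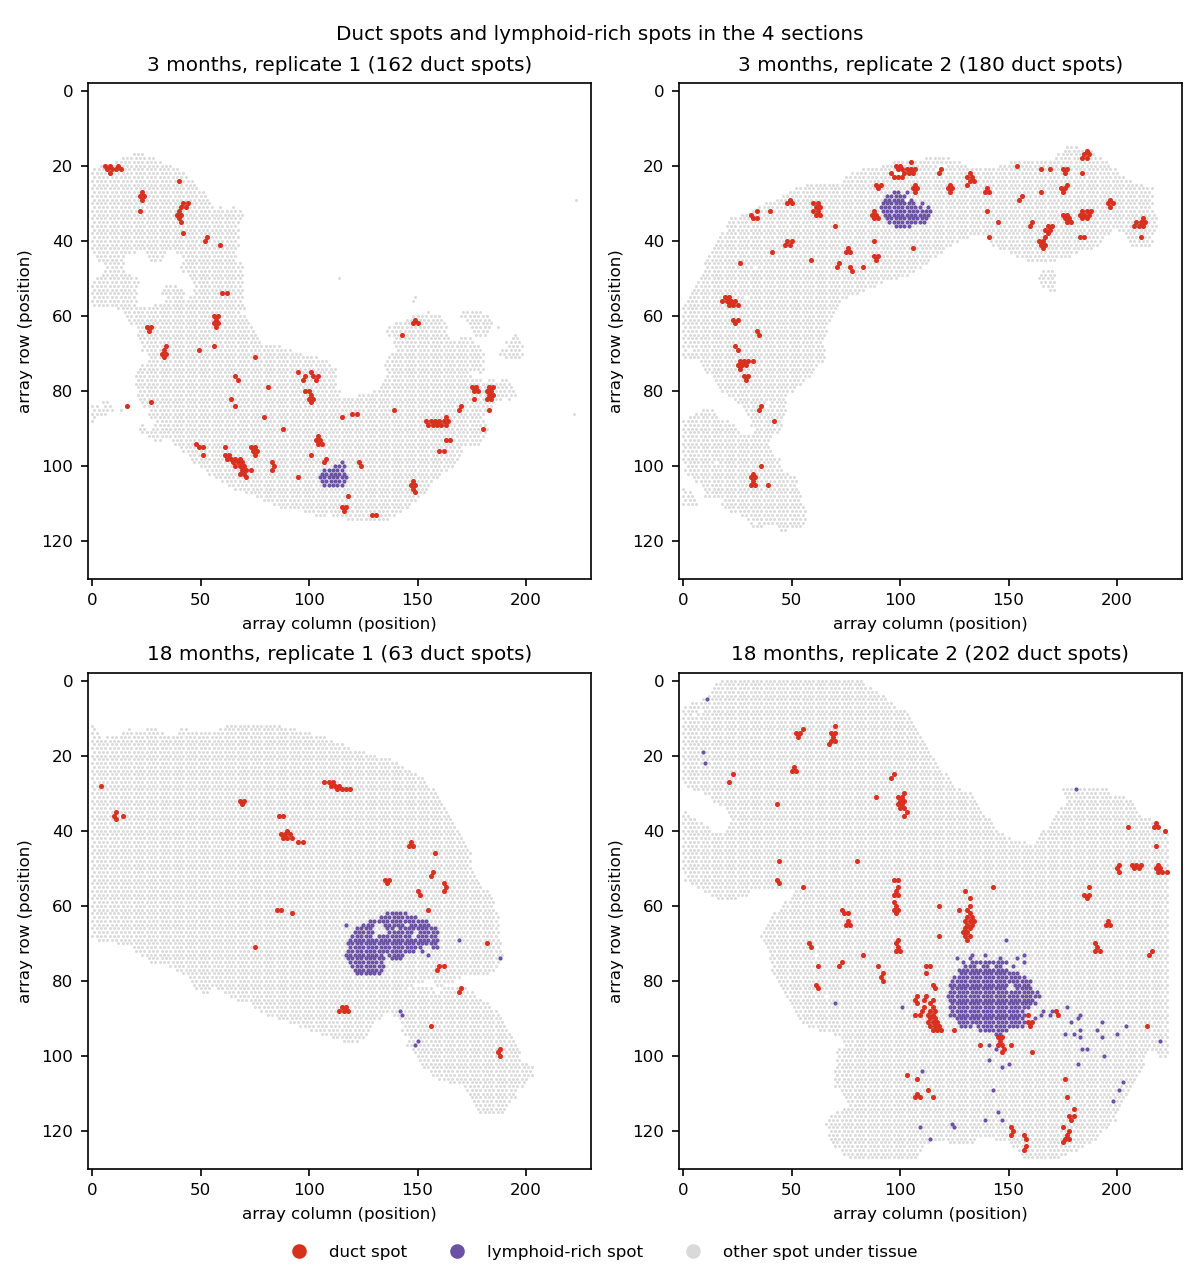
Position of spots on the array (row and column numbers, both axes) in the 4 sections, with duct spots in red, spots rich in lymphoid transcripts in purple and all further spots under tissue in grey. The 162, 180, 63 and 202 duct spots form scattered small patches outside the compact lymphoid area of each section.

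Duct spots held more UMIs than the other spots of their section. Their median was 15778 and 11711 UMIs at 3 months and, at 18 months, 9748 and 4779 UMIs, against 7910 and 6211 UMIs at 3 months and, at 18 months, 1819 and 1326 UMIs in other spots. The gap was 1.99-fold and 1.89-fold at 3 months and, at 18 months, 5.36 and 3.60 times, so it was wider in the older sections. In sum the duct spots gave 2674187 and 2275963 UMIs at 3 months and, at 18 months, 643750 and 1239830 UMIs, and 18 months replicate 1, with the fewest duct spots, had the smallest total. More UMIs per spot can come from more cells of any type in it or from more RNA per cell, and these cannot be told apart in summed spots. The floor of 3 rule UMIs also makes shallow spots harder to call duct spots, and its part in the gap was not tested. No duct spot was rich in lymphoid or muscle transcripts, which allows a share of up to 0.494% of duct spots (3 spots of 607, counting error only), and 1 was rich in adipocyte transcripts.

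The 7 genes that chose the spots are given as a description only. Epcam, an adhesion molecule of epithelial cells, reached 1033 and 1448 CPM at 3 months and, at 18 months, 1546 and 1363 CPM (CPM, counts per 1000000 UMIs of the summed spots) in duct spots and 89.2 and 76.4 CPM at 3 months and, at 18 months, 50.5 and 46.6 CPM in other spots. The luminal keratin Krt8 reached 734 and 988 CPM at 3 months and, at 18 months, 586 and 786 CPM, and the basal keratin Krt14 reached 218 and 246 CPM at 3 months and, at 18 months, 537 and 419 CPM. The share of duct spots with UMIs of both luminal and basal rule genes was 94.4 and 92.8% at 3 months and, at 18 months, 96.8 and 81.7%, so that most single spots held transcripts of both layers of a duct. The share of the rule UMIs that came from the basal pair Krt5 and Krt14 was 7.81 and 7.14% at 3 months and, at 18 months, 21.0 and 14.1%, and the ages did not overlap in it. Of all rule UMIs of a section, the part inside duct spots was 46.0 and 60.4% at 3 months and, at 18 months, 49.5 and 64.0%, so epithelial transcripts were also spread thinly over the other spots. In each section the 10 duct spots nearest the limit had shares from the limit up to 0.325%, and the 10 spots just under it had shares from 0.275% up to the limit. Summed over the 18 measured members of a second epithelial list that the rule did not use, the spots just inside held 2009 and 1667 CPM at 3 months and, at 18 months, 4285 and 2630.4 CPM. Those just outside held 1483 and 1321 CPM at 3 months and, at 18 months, 2771 and 2800.2 CPM, higher inside in 3 of the 4 sections.

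For all other genes, UMIs were summed over duct spots and over other spots of each section and compared within sections by edgeR's quasi-likelihood test, with 1 duct effect per age. The 7 rule genes were left out of the test. Because the spots were chosen by epithelial transcripts of the same sections, genes of the same cells were bound to be higher there. The test shows how evenly the sections repeated each difference, judged by a spread drawn mostly from all genes together. At 3 months 1901 of 19188 genes (9.91%) were higher and 2796 (14.6%) lower in duct spots at an adjusted p under 0.05. At 18 months 1885 (9.82%) were higher and 2101 (10.9%) lower. A gene was taken to mark ducts at both ages when it was called at both, at least 2-fold different at both and different in the same direction in all 4 sections. By this rule 740 genes (3.86%) were higher at both ages and 569 (2.97%) were lower. Scaling by library size alone moved the median log2 fold change of all genes from 0.06 to 0.39, the genes higher at both ages to 1141 and those lower to 152, and the part that was higher of the 6096 genes (31.8%) called for the mean of both ages from 44.1% to 78.0%. Without 3 months replicate 2, 299 genes were lower at both ages and 1372 were called at 3 months, and without 3 months replicate 1, 2041 were called at 3 months. In either direction, 4697 genes were called at 3 months and 3986 at 18 months, and 6333 and 4706 with library size alone. With spots rich in lymphoid or muscle transcripts left out of the other spots, 6247 and 7422 of 19090 genes were called. List counts under these settings are to be read beside those. All changes below are relative to the TMM scale (trimmed mean of M values), on which the median was 0.05 at both ages. CPM values use library size alone, so a ratio of CPM can lie above the fold change given beside it.

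**Figure D2:**
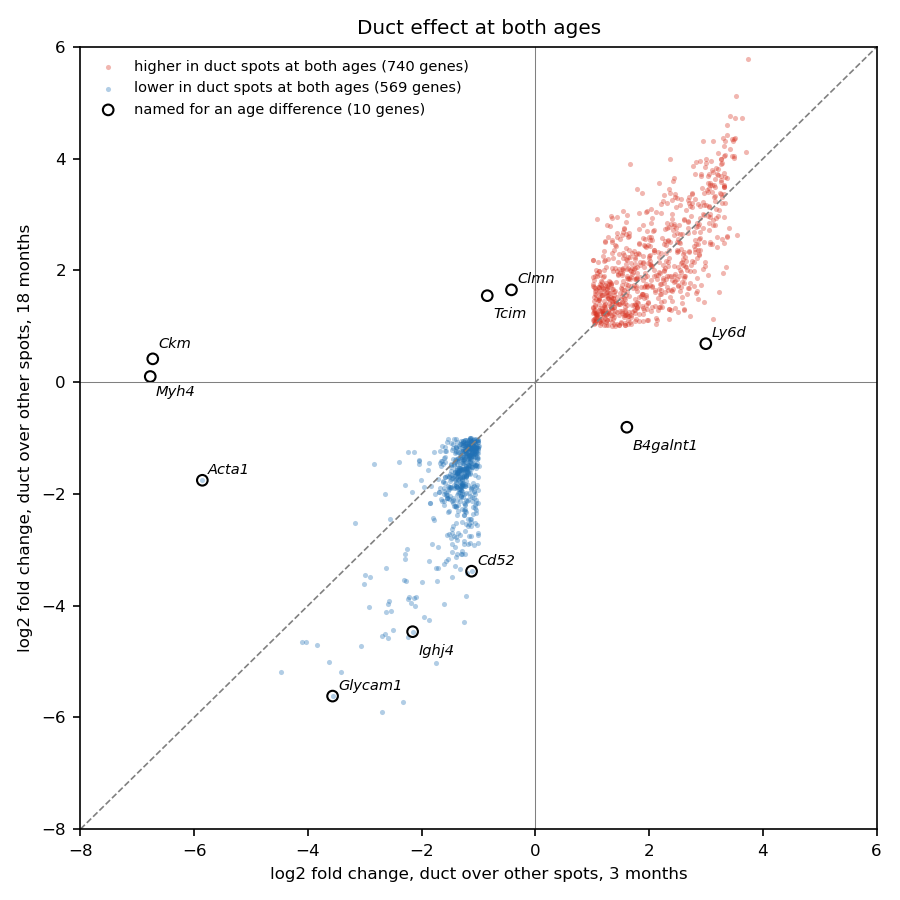
Log2 fold change of duct over other spots at 3 months (horizontal axis) and 18 months (vertical axis) for the 740 genes higher and the 569 genes lower at both ages, with a dashed line of equal effect. Circles mark the 10 genes named for a different effect at the 2 ages, which lie far from the line, such as Ckm at -6.73 and 0.42.

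The strongest markers of ducts at both ages joined secreted proteins, junction proteins and keratins. Among genes with at least 100 CPM in duct spots, the 12 with the largest mean effect were Wfdc18, Wfdc2, Fcgbp, Fxyd3, Cldn3, Krt17, Dsp, Krt15, Cdh1, Plet1, Areg and Ltf. As the choice required, all 12 were called at both ages and were higher in duct spots within all 4 sections. Their log2 fold changes were 3.30 to 3.63 at 3 months and 4.01 to 4.76 at 18 months. In each gene all 4 duct values also lay above all 4 values of other spots, which a choice of the largest effects makes likely. Wfdc18, a small secreted protein of the whey acidic protein family, reached 328 and 219.7 CPM in duct spots against 23.3 and 11.5 CPM in other spots at 3 months. At 18 months Wfdc18 held 1539 and 899 CPM against 43.4 and 30.4 CPM. The duct spots of the older sections held the higher levels. Its log2 fold change was 3.63 ± 0.23 (SE, n = 2 sections) at 3 months and 4.73 ± 0.24 at 18 months (edgeR adjusted p = 2.02e-10 and 1.40e-11). Fcgbp, which encodes a mucin-like secreted protein that binds the Fc part of IgG, reached 548 and 312 CPM in duct spots against 44.0 and 19.3 CPM in other spots at 3 months. At 18 months Fcgbp held 2403 and 1733 CPM against 62.9 and 60.9 CPM, again highest in the older ducts. Wfdc2, a secreted protein of the same fold as Wfdc18, had the lower duct levels in the older sections, with 498 and 710.0 CPM in duct spots against 40.6 and 39.2 CPM in other spots at 3 months. At 18 months Wfdc2 held 151 and 422 CPM against 4.91 and 13.0 CPM. Outside the ducts it was lower in the older sections as well.

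The tight junction gene Cldn3 reached 257 and 327 CPM in duct spots against 22.5 and 17.7 CPM in other spots at 3 months. At 18 months Cldn3 held 506 and 319 CPM against 17.0 and 15.2 CPM. Cdh1, which encodes E-cadherin of adherens junctions, held 148 and 145 CPM at 3 months and, at 18 months, 211 and 231 CPM in duct spots, and Dsp, the plaque protein desmoplakin of desmosomes, held 149.6 and 131 CPM at 3 months and, at 18 months, 270.3 and 374 CPM. Outside the ducts neither passed 13.8 CPM in any section. Krt17, a keratin of basal and stressed epithelium, had 89.7 and 62.8 CPM at 3 months and, at 18 months, 222 and 115 CPM in duct spots, and Krt15, a keratin of basal cells and of hair follicle stem cells, had 96.5 and 62.8 CPM at 3 months and, at 18 months, 214 and 74.2 CPM. Fxyd3, a regulator of the sodium pump, had 314 and 388 CPM at 3 months and, at 18 months, 694 and 496 CPM, and Plet1, a surface protein of epithelial progenitors, had 167 and 159 CPM at 3 months and, at 18 months, 317 and 265 CPM. The milk and tear protein lactoferrin, encoded by Ltf, reached 637 and 427 CPM in duct spots against 47.4 and 26.1 CPM in other spots at 3 months. At 18 months Ltf held 376 and 892 CPM against 27.3 and 33.2 CPM. Areg, the epidermal growth factor-like ligand amphiregulin that relays oestrogen signals in pubertal ducts, reached 583 and 1004 CPM in duct spots against 49.8 and 55.9 CPM in other spots at 3 months. At 18 months Areg held 314 and 433 CPM against 14.3 and 23.2 CPM. Areg was lower in the ducts of both older sections than in those of both younger ones, while its log2 fold change over other spots was 3.46 ± 0.23 and 4.06 ± 0.25 (edgeR adjusted p = 0.413 for the age difference).

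**Figure D3:**
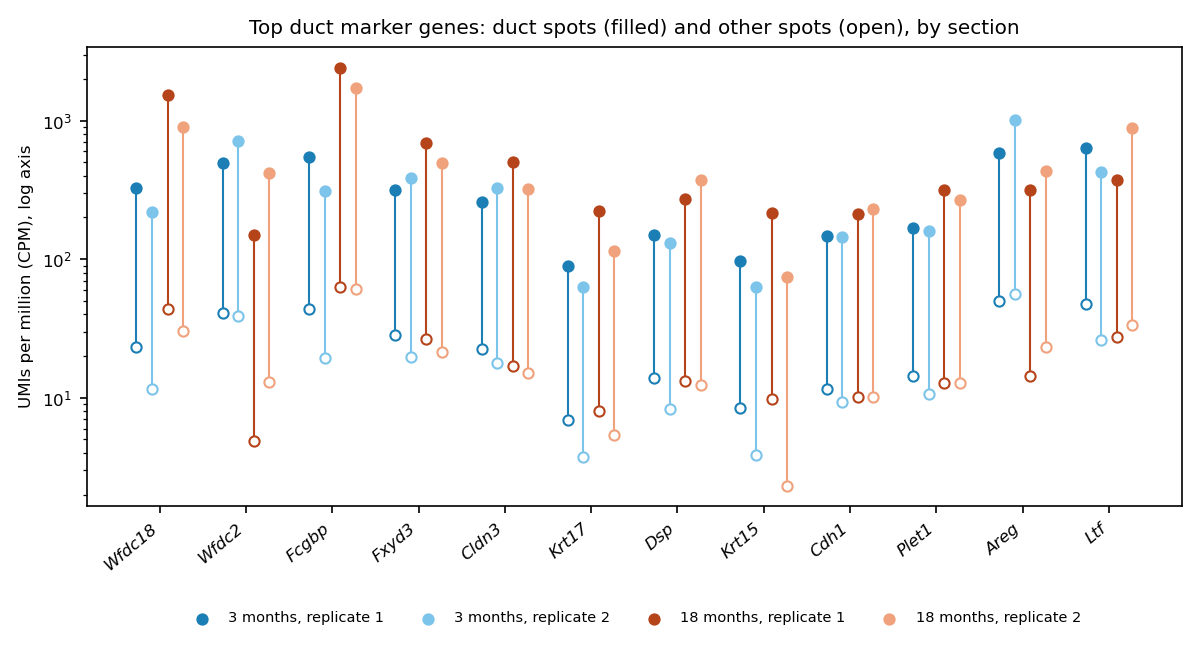
Level of the 12 strongest duct markers in CPM (log axis) in duct spots (filled) and other spots (open) of each section, joined by a line. By the choice of these genes the filled point lies above the open one in every section, such as 314 against 14.3 CPM for Areg in 18 months replicate 1.

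To show what lies upstream of 3 of these genes with different roles (Wfdc18 as a secreted protein, Cldn3 as a junction protein and Areg as a ligand, chosen after their values were seen), their promoters are given from RefSeq on GRCm38.p6. Each window runs from 250 bases before to 50 bases after the start of the gene, on the plus strand, 5′ to 3′, at chr11:83708754-83709053, chr5:134985964-134986263 and chr5:91139349-91139648. Capitals mark matches on either strand to 4 motifs. AP-2 factors were searched for as GCCNNNGGC. ETS factors, such as Elf5, Elf3 and Ehf, were searched for as AGGAAGT. For factors of the GATA family the letters were AGATAA, and the TATA box was searched for as TATAAA.
Wfdc18: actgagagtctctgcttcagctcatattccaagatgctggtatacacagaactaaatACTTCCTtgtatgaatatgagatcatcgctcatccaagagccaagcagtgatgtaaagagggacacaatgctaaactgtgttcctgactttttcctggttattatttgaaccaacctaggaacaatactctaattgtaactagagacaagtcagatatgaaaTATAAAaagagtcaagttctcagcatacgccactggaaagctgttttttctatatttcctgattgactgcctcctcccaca
Cldn3: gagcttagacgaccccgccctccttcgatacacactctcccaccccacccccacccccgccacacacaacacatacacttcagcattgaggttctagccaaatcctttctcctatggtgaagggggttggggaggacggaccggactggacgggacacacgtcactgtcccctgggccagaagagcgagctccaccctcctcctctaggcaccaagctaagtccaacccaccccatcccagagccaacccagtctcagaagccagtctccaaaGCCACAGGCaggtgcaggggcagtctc
Areg: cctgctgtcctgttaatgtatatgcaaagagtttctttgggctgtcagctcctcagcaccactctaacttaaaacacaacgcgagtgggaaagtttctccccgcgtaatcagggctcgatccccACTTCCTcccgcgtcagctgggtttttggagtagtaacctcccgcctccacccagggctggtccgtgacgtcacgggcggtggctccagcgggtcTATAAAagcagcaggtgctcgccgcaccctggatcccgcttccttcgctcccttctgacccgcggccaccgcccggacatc
Wfdc18 and Areg each held an ETS match and a TATA match, and Cldn3 held an AP-2 match. Of all 27025 promoters in the table, 16.5% held the AP-2 letters, 9.57% the ETS letters, 11.4% the GATA letters and 14.2% the TATA letters. Of the 14841 promoters of genes that were tested, 21.1%, 8.83%, 9.34% and 12.1% held them. Of the 740 genes higher in ducts at both ages, 518 had an entry, and 26.6%, 7.34%, 7.72% and 8.49% of them held these letters. Of the 569 lower genes, 420 had an entry, and the shares were 25%, 12.9%, 8.57% and 15.2%. The AP-2 letters were thus about as frequent upstream of genes lower in ducts as of genes higher there, and a match of letters is a description, not a bound site.

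A second set of genes common to simple epithelia was used to check the name of the spots. Krt18 is not one of the 19465 genes in the matrices, and the other 18 of 19 genes were all called higher at both ages. Their median log2 fold change was 3.10 at 3 months and 3.64 at 18 months, and 3.05 and 3.28 without lymphoid-rich and muscle-rich spots. Together they made up 2821 and 2943 CPM at 3 months and, at 18 months, 4369.7 and 3818 CPM in duct spots and 289 and 218 CPM at 3 months and, at 18 months, 343 and 430.1 CPM in other spots. Spint2, an inhibitor of membrane proteases, had 535 and 648 CPM in duct spots against 59.9 and 47.3 CPM in other spots at 3 months. At 18 months Spint2 held 822 and 764 CPM against 119 and 114 CPM. The splicing regulator Esrp2 was low in level, with 30.7 and 38.2 CPM in duct spots against 2.50 and 1.98 CPM in other spots at 3 months. At 18 months Esrp2 held 49.7 and 27.4 CPM against 0.600 and 1.09 CPM, and had the largest effect of the list at 18 months, 5.13 ± 0.38 (SE). Cd24a, a surface glycoprotein also carried by B cells and named after its values were seen, was the member whose effect was called smaller at 18 months, at 1.60 against 2.83 (edgeR adjusted p = 0.0130).

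Keratins are also made by skin, so its genes were examined. Of 14 genes of epidermis and hair follicle, 13 were tested. Krt15, already described, was the 1 called higher at both ages, and Calml3, a calmodulin-like protein of basal epithelium, was called higher at 18 months. Calml3 had 6.36 and 4.83 CPM in duct spots against 3.24 and 3.00 CPM in other spots at 3 months. At 18 months Calml3 held 29.5 and 16.1 CPM against 6.11 and 6.10 CPM. Sbsn, a protein of the cornified layer, was lower in duct spots at 3 months (-0.64, edgeR adjusted p = 0.0322). For the mean of both ages Sbsn was at -0.22, which did not pass the test, and at 0.10 with library size alone. Krt10, a keratin of differentiating epidermis, had 19.1 and 19.8 CPM in duct spots against 16.8 and 12.2 CPM in other spots at 3 months. At 18 months Krt10 held 26.4 and 25 CPM against 14.4 and 17.2 CPM. Its log2 fold changes of 0.03 and 0.42 did not pass the test. Krt1, Lor, Flg and Ivl, named after their values were seen, did not exceed 12.9 CPM in the duct spots of any section. The median of the list was 0.12 at 3 months and 0.36 at 18 months.

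Genes of hormone-sensing luminal cells were concentrated in the duct spots, Esr1 apart. Of 10 genes, 8 were called higher at 3 months and 9 at 18 months, the same 8 at both. The median log2 fold change was 2.75 at 3 months and 2.64 at 18 months, and 2.67 and 2.13 without lymphoid-rich and muscle-rich spots. Prlr, the prolactin receptor, held 1427 and 1397 CPM in duct spots against 131 and 82.7 CPM in other spots at 3 months. At 18 months Prlr held 245 and 773 CPM against 25.8 and 33.9 CPM. Its level in the duct spots of both older sections lay below that of both younger ones, and its effect over other spots was 3.37 ± 0.32 and 3.65 ± 0.34. Foxa1, the pioneer factor that opens chromatin for the oestrogen receptor, reached 297 and 218 CPM in duct spots against 26.8 and 13.9 CPM in other spots at 3 months. At 18 months Foxa1 held 46.6 and 201 CPM against 3.44 and 8.79 CPM. The progesterone receptor gene Pgr, named after its values were seen, reached 93.5 and 79.1 CPM in duct spots against 13.1 and 7.39 CPM in other spots at 3 months. At 18 months Pgr held 24.9 and 29.0 CPM against 5.62 and 8.27 CPM.

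Esr1, the oestrogen receptor gene and the best known member of the list, was not called higher in duct spots. It held 281 and 322 CPM in duct spots against 243 and 332 CPM in other spots at 3 months. At 18 months Esr1 held 82.3 and 184 CPM against 173 and 151 CPM. The ranges of duct and other spots overlapped, and its log2 fold changes of -0.31 ± 0.26 and -0.56 ± 0.29 did not pass the test (edgeR adjusted p = 0.422 and 0.206). The mean effect turned to 0.14 when both classes were held to deep spots, and it was called lower, at -0.92, without lymphoid-rich and muscle-rich spots and, at -0.94, without 18 months replicate 2. Tnfsf11, the ligand RANKL through which progesterone acts on neighbouring cells, named after its values were seen, was the other gene not called at 3 months. At 18 months it was called, and 1 section was high. Tnfsf11 had 3.74 and 5.27 CPM in duct spots against 3.66 and 3.11 CPM in other spots at 3 months. At 18 months Tnfsf11 held 188 and 28.2 CPM against 22.6 and 33.5 CPM. In 18 months replicate 2 the duct level lay below that of other spots.

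Of 17 secretory luminal genes, 16 were tested, 10 were called higher at 3 months and 11 at 18 months, and 1 was lower at each age. The median was 1.48 at 3 months and 2.14 at 18 months, and 1.37 and 1.91 without lymphoid-rich and muscle-rich spots. Csn1s1 was below the filter on low counts. Csn3, the kappa casein gene, was the 1 casein called higher in ducts, with 191 and 275 CPM in duct spots against 17.9 and 16.7 CPM in other spots at 3 months. At 18 months Csn3 held 87.0 and 50 CPM against 6.16 and 5.53 CPM. Its level was lower in the ducts of both older sections. The milk genes Csn2, Csn1s2a, Lalba and Wap, named after their values were seen, held at most 18.6 CPM in the duct spots of any section and were not called at either age. Lcn2, an antibacterial protein that binds iron carriers, had 343 and 417 CPM in duct spots against 37.1 and 29.6 CPM in other spots at 3 months. At 18 months Lcn2 held 483 and 373 CPM against 33.0 and 19.8 CPM. Mfge8, the milk fat globule protein, was also abundant outside ducts, with 756 and 669 CPM in duct spots against 272 and 232 CPM in other spots at 3 months. At 18 months Mfge8 held 2304 and 1832 CPM against 543 and 691 CPM. Kit, the stem cell factor receptor of luminal progenitors, named after its values were seen, reached 207 and 187 CPM in duct spots against 34.1 and 28.5 CPM in other spots at 3 months. At 18 months Kit held 610.5 and 398 CPM against 39.1 and 39.9 CPM, and its effect was called larger at 18 months (1.10 on the log2 scale, edgeR adjusted p = 0.0175). Trf, the iron carrier transferrin, was lower in duct spots at both ages, with 1341 and 961 CPM in duct spots against 2016 and 1624 CPM in other spots at 3 months. At 18 months Trf held 651 and 574 CPM against 1112 and 838 CPM.

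A list of milk and apical secretion genes, which shares the caseins, Lalba, Wap, Mfge8 and Wfdc18 with the one above, had 14 of 17 tested, 5 higher and 3 lower at each age, with a median of 0.38 at 3 months and 0.50 at 18 months. The mucins Muc1 and Muc15, named after their values were seen, were higher at both ages at low levels, with 12.3 and 7.03 CPM at 3 months and, at 18 months, 26.4 and 19.4 CPM for Muc1. Plin2, which coats lipid droplets in both adipocytes and secretory cells, was lower, with 301 and 221 CPM in duct spots against 414 and 322 CPM in other spots at 3 months. At 18 months Plin2 held 110.3 and 170.2 CPM against 239 and 241 CPM. Glycam1, once known as a milk protein and also the mucin of lymph node venules, was strongly lower in ducts. It held 2.99 and 4.83 CPM in duct spots against 22.5 and 49.6 CPM in other spots at 3 months. At 18 months Glycam1 held 24.9 and 25 CPM against 917 and 1114 CPM. Its log2 fold changes were -3.57 ± 0.33 and -5.62 ± 0.28. Its counts in duct spots were 8 and 11 UMIs at 3 months and, at 18 months, 16 and 31 UMIs.

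Most myoepithelial genes were higher in duct spots at both ages. Of 13 genes, 11 were called higher at 3 months and 13 at 18 months, 9 of them past 2-fold at both ages. The median was 1.59 at 3 months and 2.21 at 18 months, and 1.46 and 1.43 without lymphoid-rich and muscle-rich spots. Acta2, smooth muscle actin, reached 628 and 384 CPM in duct spots against 107 and 116 CPM in other spots at 3 months. At 18 months Acta2 held 859 and 911 CPM against 154 and 161 CPM. Tagln, an actin-binding protein of contractile cells, reached 494 and 367 CPM in duct spots against 100.4 and 116 CPM in other spots at 3 months. At 18 months Tagln held 1069 and 874 CPM against 174 and 193 CPM. Both are also made by vessel walls, and 5 of 7 pericyte genes were lower in duct spots at 3 months and 4 at 18 months, while Notch3, a receptor of mural cells, was higher at both (0.49 and 1.32). Sox10, a transcription factor of basal and progenitor cells, was low outside ducts, with 41.1 and 42.6 CPM in duct spots against 5.53 and 4.39 CPM in other spots at 3 months. At 18 months Sox10 held 90.1 and 49.2 CPM against 6.05 and 5.38 CPM. The calponin gene Cnn1 had 83.0 and 63.7 CPM in duct spots against 12.8 and 9.59 CPM in other spots at 3 months. At 18 months Cnn1 held 134 and 158 CPM against 12.7 and 13.5 CPM, and its effect was called larger at 18 months (0.89, edgeR adjusted p = 0.0313).

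Oxtr, the oxytocin receptor through which myoepithelial cells are made to contract, had the largest age difference of this list. It held 228 and 135 CPM in duct spots against 119 and 42.2 CPM in other spots at 3 months. At 18 months Oxtr held 267 and 297 CPM against 34.3 and 48.4 CPM. In CPM both older sections held more in the ducts than both younger ones, and 3 months replicate 1 stood high among other spots. The TMM factors of the duct sums were 0.982 and 0.987 at 3 months and, at 18 months, 1.35 and 1.23. With CPM divided by these factors, the ducts of 18 months replicate 1 lie below those of 3 months replicate 1, so the ages overlap on the TMM scale. The log2 fold change was 0.90 ± 0.19 at 3 months and 2.51 ± 0.20 at 18 months, a difference of 1.61 ± 0.27 (edgeR adjusted p = 0.00163). Pdpn, podoplanin of basal cells, fibroblasts and lymphatic vessels, named after its values were seen, was called at 18 months alone. It had 62.8 and 52.3 CPM in duct spots against 52.2 and 34.3 CPM in other spots at 3 months. At 18 months Pdpn held 118 and 140.3 CPM against 35.7 and 44.1 CPM (edgeR adjusted p of the age difference = 0.00129).

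**Figure D4:**
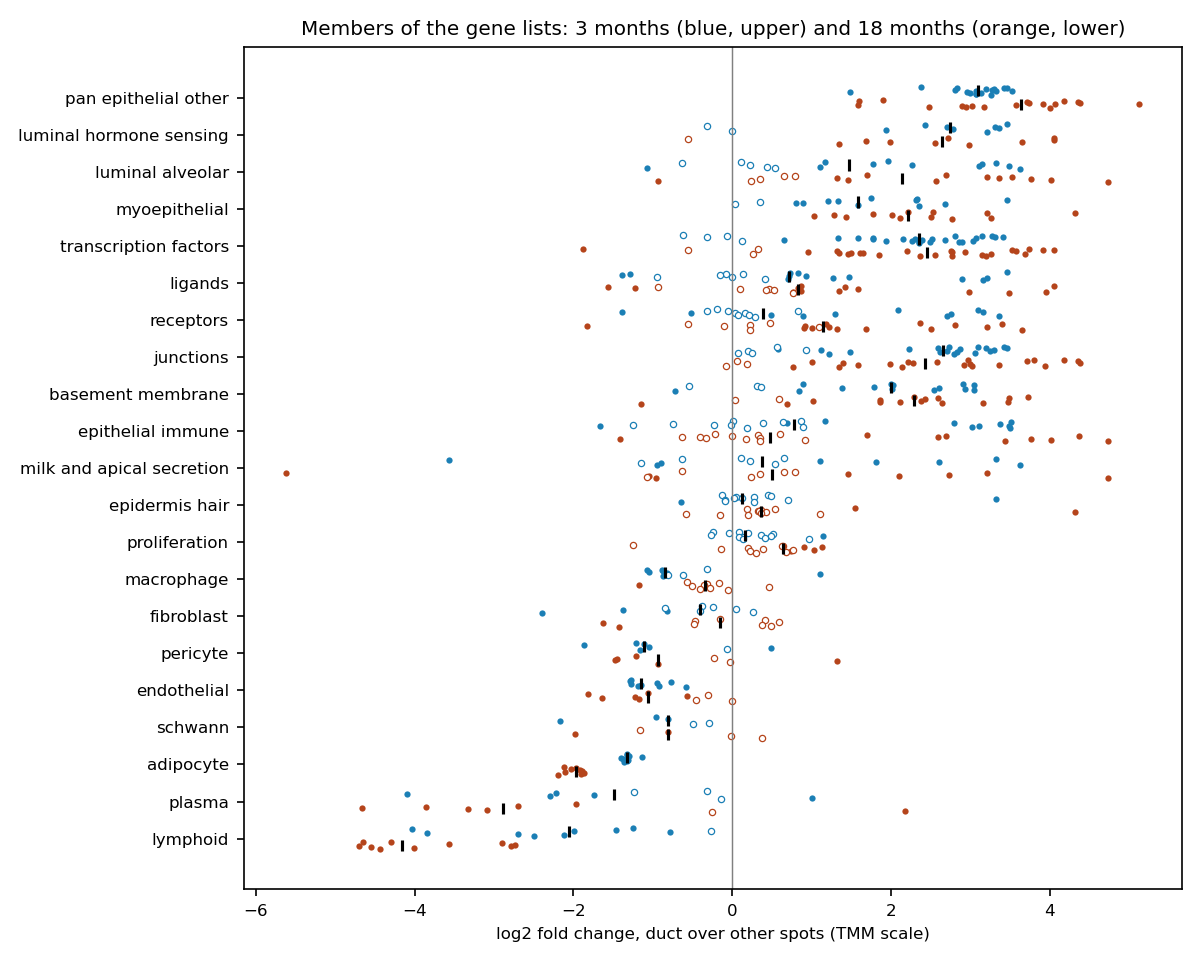
Log2 fold change of duct over other spots (horizontal axis, TMM scale) for every tested gene of 21 gene lists, at 3 months in blue and 18 months in orange. Filled points passed an adjusted p of 0.05, open points did not, and black bars are medians. Among the lists drawn they run from 3.64 for the second epithelial list to -4.15 for lymphoid genes, both at 18 months. The muscle list, with a median of -6.46 at 3 months, and the lymphatic list are not drawn.

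Most junction genes were higher in duct spots at both ages. Of 24, 19 were higher at 3 months and 21 at 18 months, none was lower, and the median was 2.66 at 3 months and 2.43 at 18 months. Beside Cldn3, Cdh1 and Dsp, F11r, a junctional adhesion molecule shared with endothelium and leukocytes, was higher by less, with 233 and 244 CPM in duct spots against 85.8 and 80.9 CPM in other spots at 3 months. At 18 months F11r held 277 and 227 CPM against 81.4 and 74.7 CPM. Jup, the plakoglobin of both desmosomes and adherens junctions, was abundant everywhere, with 388 and 395 CPM in duct spots against 270.2 and 247 CPM in other spots at 3 months. At 18 months Jup held 429 and 408 CPM against 339 and 272 CPM, and did not pass the test at either age. Its mean effect over both ages was called in opposite directions by the choice of spots, at -0.27 without lymphoid-rich and muscle-rich spots and at 0.77 among deep spots. Pkp1, the desmosomal plakophilin of stratified epithelium, and Gjb2, a gap junction protein, both named after their values were seen, had effects called larger at 18 months, with 93.5 and 61.1 CPM at 3 months and, at 18 months, 290.5 and 227 CPM in duct spots for Pkp1. Gjb2 held 4.49 and 2.64 CPM at 3 months and, at 18 months, 57.5 and 24.2 CPM there.

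Of 17 genes for the basement membrane and its anchors, 13 were higher and 1 lower at 3 months, and 14 were higher and 1 lower at 18 months. The median was 2.00 at 3 months and 2.29 at 18 months, and 1.90 and 1.74 without lymphoid-rich and muscle-rich spots. Col17a1, the hemidesmosomal collagen, reached 69.6 and 69.0 CPM in duct spots against 8.61 and 5.53 CPM in other spots at 3 months. At 18 months Col17a1 held 197 and 156 CPM against 9.05 and 12.8 CPM. Col4a6, a collagen IV chain of ducts and muscle, reached 45.2 and 47.0 CPM in duct spots against 5.26 and 3.26 CPM in other spots at 3 months. At 18 months Col4a6 held 80.8 and 72.6 CPM against 6.05 and 5.32 CPM. Lama3, a chain of laminin 332, reached 34.4 and 54.9 CPM in duct spots against 4.47 and 4.17 CPM in other spots at 3 months. At 18 months Lama3 held 138 and 73.4 CPM against 8.18 and 6.77 CPM. Hspg2, the perlecan core protein that vessels and fat also make, did not pass the test at either age, with 254 and 229 CPM in duct spots against 271 and 264 CPM in other spots at 3 months. At 18 months Hspg2 held 247 and 222 CPM against 207 and 172 CPM. Its mean effect was called lower, at -0.74, without lymphoid-rich and muscle-rich spots. Dst and Plec, linkers of intermediate filaments to hemidesmosomes, were also high outside ducts. Dst had 356 and 393 CPM at 3 months and, at 18 months, 432 and 453 CPM in duct spots, and Plec had 394 and 405 CPM at 3 months and, at 18 months, 346 and 479 CPM. Plec was called at both ages (0.84 and 0.69) while Dst was not (0.32 and 0.59).

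Of 28 transcription factors known in mammary epithelium, 24 were higher at 3 months and 24 at 18 months, 22 of them past 2-fold at both ages, with a median of 2.35 at 3 months and 2.46 at 18 months. Trps1, a GATA-type repressor of luminal and basal cells, had 462 and 522 CPM in duct spots against 72.0 and 74.4 CPM in other spots at 3 months. At 18 months Trps1 held 548 and 457 CPM against 74.8 and 85.1 CPM. Gata3, the master factor of luminal identity, reached 438 and 607 CPM in duct spots against 39.5 and 34.3 CPM in other spots at 3 months. At 18 months Gata3 held 171 and 235 CPM against 22.4 and 27.3 CPM, lower in the ducts of both older sections. Ehf, an ETS factor of epithelium, reached 104 and 131 CPM in duct spots against 12.6 and 12.8 CPM in other spots at 3 months. At 18 months Ehf held 819 and 377 CPM against 36.6 and 32.2 CPM, and here the older ducts held more. Elf3, a related ETS factor, reached 90.5 and 127 CPM in duct spots against 8.71 and 8.01 CPM in other spots at 3 months. At 18 months Elf3 held 130.5 and 125 CPM against 6.05 and 7.86 CPM. Sox9, a factor of progenitor and basal cells, reached 113 and 80.4 CPM in duct spots against 10.3 and 7.54 CPM in other spots at 3 months. At 18 months Sox9 held 217 and 225 CPM against 12.2 and 16.3 CPM. Stat5a and Cebpb, factors of the lactation programme that stroma and fat also express, were not called at either age. Stat5a had 286 and 232 CPM at 3 months and, at 18 months, 185 and 124 CPM in duct spots, and Cebpb had 262 and 367 CPM at 3 months and, at 18 months, 216 and 149 CPM. Bcl11a, known in both luminal progenitors and B cells, was lower in duct spots at 18 months (-1.88, edgeR adjusted p = 3.47e-04). Id4, an inhibitor of helix-loop-helix factors in basal cells, had a larger effect at 18 months, 2.93 against 1.34 (edgeR adjusted p of the difference = 0.00108). The last 4 were named after their values were seen.

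Ligands were divided between ducts and their surroundings. Of 19 ligands, 11 were higher and 2 lower at each age, with a median of 0.71 at 3 months and 0.83 at 18 months. Wnt7b and Wnt5b, both Wnt ligands of luminal epithelium, were higher at both ages. Wnt7b reached 110.3 and 117 CPM in duct spots against 10.4 and 8.97 CPM in other spots at 3 months. At 18 months Wnt7b held 118 and 119 CPM against 6.33 and 11.2 CPM. Wnt5b reached 100.2 and 101 CPM in duct spots against 10.5 and 10.1 CPM in other spots at 3 months. At 18 months Wnt5b held 477 and 286 CPM against 19.4 and 19.7 CPM. Wnt5b had a larger effect at 18 months (difference 1.06 ± 0.23, edgeR adjusted p = 0.0131). Igf1, a growth factor from fat and stroma, was lower in duct spots, with 377 and 325 CPM in duct spots against 693 and 705 CPM in other spots at 3 months. At 18 months Igf1 held 138 and 192 CPM against 393 and 266 CPM. The stromal ligand Fgf10, named after its values were seen, was lower as well (-1.29 and -1.57).

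Of 20 receptors, 9 were higher and 2 lower at 3 months, and 13 were higher and 1 lower at 18 months. The median was 0.39 at 3 months and 1.14 at 18 months, and 0.31 and 0.69 without lymphoid-rich and muscle-rich spots. Fgfr2, the receptor for Fgf10 on ducts, reached 454 and 419.6 CPM in duct spots against 42.4 and 32.3 CPM in other spots at 3 months. At 18 months Fgfr2 held 139.8 and 313 CPM against 22.6 and 29.1 CPM. Erbb3, a receptor for neuregulins, reached 173 and 223 CPM in duct spots against 17.6 and 17.1 CPM in other spots at 3 months. At 18 months Erbb3 held 121 and 134 CPM against 9.22 and 10.8 CPM. Ghr, the growth hormone receptor, was lower in duct spots with 751 and 637 CPM in duct spots against 1352 and 1409.7 CPM in other spots at 3 months. At 18 months Ghr held 235 and 365 CPM against 1018 and 745 CPM. The receptor of Areg, Egfr, named after its values were seen, did not pass the test at either age, with 61.7 and 65.0 CPM in duct spots against 60.8 and 49.5 CPM in other spots at 3 months. At 18 months Egfr held 85.4 and 81.5 CPM against 47.7 and 51.1 CPM.

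Genes of mucosal defence were mixed. Of 23, 20 were tested, 9 were higher and 1 lower at 3 months, and 8 were higher and 1 lower at 18 months, with a median of 0.78 at 3 months and 0.47 at 18 months. The higher ones included the secreted antibacterial proteins Ltf and Lcn2 and the protease inhibitor-like Wfdc2, given above. Cxcl15, a chemokine of epithelial surfaces, reached 176 and 124 CPM in duct spots against 14.2 and 6.48 CPM in other spots at 3 months. At 18 months Cxcl15 held 4.66 and 66.9 CPM against 0.382 and 2.69 CPM, far lower in 18 months replicate 1 than elsewhere. Pigr, the receptor that carries IgA into milk, was low in virgin ducts, with 4.86 and 4.83 CPM at 3 months and, at 18 months, 14.0 and 12.9 CPM in duct spots, and was not called (edgeR adjusted p = 0.0959 and 0.0931, named after its values were seen).

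Of 15 genes of the cell cycle, 14 were tested, and the replication gene Mcm6 was the 1 called at both ages, with 82.6 and 85.7 CPM in duct spots against 26.2 and 32.1 CPM in other spots at 3 months. At 18 months Mcm6 held 148 and 131 CPM against 57.0 and 55.6 CPM. At 18 months 4 were called higher, Mcm2, Mcm6, Cdk1 and Mki67, and none was lower. Without lymphoid-rich and muscle-rich spots 4 of 14 were higher at 3 months and 10 at 18 months. Scaled to library size alone, 6 and 7 were higher. More of all genes were called under both settings as well, 7422 and 4706 at 18 months in either direction, against 3986 in the main fit. Mki67, the standard marker of cycling cells, held 8.60 and 22.0 CPM in duct spots against 10.3 and 10.6 CPM in other spots at 3 months. At 18 months Mki67 held 179 and 41.9 CPM against 51.2 and 40.4 CPM, and the high value came from 18 months replicate 1 alone. Without that section its mean effect was -0.0031.

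Most genes of fat and vessels were lower in duct spots. Of 9 adipocyte genes, all 9 were lower at both ages, with a median of -1.33 at 3 months and -1.97 at 18 months. Adipoq, the adipocyte hormone adiponectin, still held 1893 and 2181 CPM in duct spots against 3471 and 4279 CPM in other spots at 3 months. At 18 months Adipoq held 581 and 873 CPM against 2895 and 2279 CPM. Plin1, the coat protein of lipid droplets, held 1363 and 1237 CPM in duct spots against 2359 and 2775 CPM in other spots at 3 months. At 18 months Plin1 held 410.1 and 707 CPM against 2062 and 1802 CPM. Of 9 endothelial genes, 9 were lower at 3 months and 6 at 18 months, with a median of -1.15 at 3 months and -1.06 at 18 months. Cdh5, the cadherin of vessels, held 108 and 79.1 CPM in duct spots against 176 and 166 CPM in other spots at 3 months. At 18 months Cdh5 held 91.7 and 71.8 CPM against 143 and 135 CPM. Of 10 macrophage genes, 6 were lower and 1 higher at 3 months, and 1 was lower at 18 months, with a median of -0.84 at 3 months and -0.34 at 18 months. Without lymphoid-rich and muscle-rich spots 7 of 10 were lower and 1 higher at each age, with medians of -0.90 and -0.92. C1qa, a complement gene of resident macrophages, held 269 and 279 CPM in duct spots against 429 and 341 CPM in other spots at 3 months. At 18 months C1qa held 377 and 399 CPM against 332 and 389.6 CPM. The 1 higher at 3 months was Cx3cr1, the fractalkine receptor known on macrophages that line ducts, with 16.8 and 10.1 CPM in duct spots against 5.29 and 4.21 CPM in other spots at 3 months. At 18 months Cx3cr1 held 24.9 and 16.9 CPM against 12.0 and 12.1 CPM.

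Fibroblast genes were present in duct spots at levels near those outside. Of 9, none was called higher, 3 were lower at 3 months and 2 at 18 months, and the median was -0.41 at 3 months and -0.15 at 18 months. Col3a1, a fibrillar collagen, held 5028 and 4635 CPM in duct spots against 6627 and 6591 CPM in other spots at 3 months. At 18 months Col3a1 held 4426 and 2568 CPM against 4236 and 3484 CPM. None of Col3a1, Col1a1 and Col1a2 passed the test at either age. Pi16 and Dpt, genes of fibroblasts of the outer connective tissue, were lower in ducts at both ages. Pi16 held 67.3 and 32.1 CPM in duct spots against 275 and 125 CPM in other spots at 3 months. At 18 months Pi16 held 38.8 and 37.9 CPM against 54.9 and 117 CPM. Scaling by library size alone called 4 of the 9 higher at 18 months, and the mean effect of Col1a1 turned to 0.08. That scaling also moved the median log2 fold change of all genes at 18 months from 0.05 to 0.31. Without lymphoid-rich and muscle-rich spots 5 of 9 were lower at 3 months and 6 at 18 months, so no direction is given for the collagens.

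Lymphoid and plasma cell genes were lower in duct spots. Of 10 lymphoid genes, 9 were lower at 3 months and 10 at 18 months, with a median of -2.05 at 3 months and -4.15 at 18 months. Cd79b, a component of the B cell receptor, held 8.23 and 10.5 CPM in duct spots against 31.4 and 64.6 CPM in other spots at 3 months. At 18 months Cd79b held 20.2 and 29.0 CPM against 248 and 730.0 CPM. The list summed to 68.4 and 76.0 CPM at 3 months and, at 18 months, 165 and 182 CPM in duct spots. In other spots it summed to 196 and 403 CPM at 3 months and, at 18 months, 1625 and 3379 CPM, and no member was at 0 in the duct spots of any section. Among other spots, those rich in lymphoid transcripts numbered 33 and 80 at 3 months and, at 18 months, 230 and 351. Of the UMIs of other spots they held 1.94 and 4.26% at 3 months and, at 18 months, 26.3 and 40.6%. Without them and without muscle-rich spots, 1 lymphoid gene was lower at 3 months and 8 at 18 months, and the medians were -0.34 and -1.34. Of 8 plasma cell genes, 4 were lower at 3 months and 6 at 18 months, and 1 was higher at both. Without lymphoid-rich and muscle-rich spots 1 was lower at 3 months and 7 at 18 months, and the median at 3 months was -0.55 in place of -1.49. Igkc, the constant part of the kappa light chain, held 10.1 and 34.7 CPM in duct spots against 134 and 447 CPM in other spots at 3 months. At 18 months Igkc held 255 and 338 CPM against 13392 and 2943 CPM. Other abundant genes named for their decrease were Ighd and Iglc3, with log2 fold changes at 18 months of -5.18 and -5.01. Immunoglobulin genes have near-identical copies, and how probes divided among them is not given, so their values are uncertain. Sdc1, the proteoglycan syndecan on both plasma cells and epithelium, went against its list and was higher, with 171 and 154 CPM in duct spots against 79.3 and 47.1 CPM in other spots at 3 months. At 18 months Sdc1 held 377 and 224 CPM against 55.1 and 50.3 CPM.

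Skeletal muscle genes were lower in duct spots of the younger sections, where all 9 were called with a median of -6.46, and 1 of 9 at 18 months. Ckm, muscle creatine kinase, held 5.98 and 3.95 CPM in duct spots against 346 and 484 CPM in other spots at 3 months. At 18 months Ckm held 14.0 and 3.23 CPM against 3.54 and 5.22 CPM. Acta1, skeletal actin, held 16.1 and 9.23 CPM in duct spots against 456 and 711 CPM in other spots at 3 months. At 18 months Acta1 held 9.32 and 4.03 CPM against 22.8 and 12.8 CPM. The list summed to 59.1 and 30.3 CPM at 3 months and, at 18 months, 41.9 and 33.1 CPM in duct spots. Outside it summed to 2019.6 and 2979.9 CPM at 3 months and, at 18 months, 50.3 and 47.5 CPM. The other spots included 58 and 60 at 3 months and, at 18 months, 0 and 0 muscle-rich spots. The age difference of Ckm was 7.15 ± 0.89 on the log2 scale (edgeR adjusted p = 1.78e-04). It was 8.37 without lymphoid-rich spots and 3.81, still called, when muscle-rich spots were left out as well. For Acta1 it was 4.10, 3.28 and -0.35 in the same order. With muscle-rich and lymphoid-rich spots left out, all 9 muscle genes were still called lower at 3 months, with a median of -2.35. Muscle transcripts thus remained among the other spots, and the kept call of Ckm is not free of them. Counts were also low, as the whole list had 27 and 41 UMIs in the duct spots at 18 months.

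The duct effect itself differed between ages for 657 genes (3.42%), 275 larger (1.43%) and 382 smaller (1.99%) at 18 months. The split was 100 larger and 349 smaller without lymphoid-rich and muscle-rich spots, and it turned to 2068 larger and 1064 smaller when both classes were held to deep spots, so no balance of directions is given. Among the 740 genes that marked ducts at both ages, 69 had a called difference in the main fit. Of these, 53 had a larger and 16 a smaller effect at 18 months. This split was not counted for the other choices of spots, so no balance is given for it either. Beside muscle genes, the abundant genes with the largest increase were Tcim, a regulator of Wnt signalling, and Clmn, a membrane protein that binds actin. Tcim held 82.6 and 99.7 CPM in duct spots against 111 and 139 CPM in other spots at 3 months. At 18 months Tcim held 160 and 149 CPM against 45.9 and 41.7 CPM, so that it was lower in ducts at 3 months and higher at 18 months, a difference of 2.40 ± 0.25 (edgeR adjusted p = 3.59e-05). Clmn held 106 and 114 CPM in duct spots against 102 and 123 CPM in other spots at 3 months. At 18 months Clmn held 199 and 153 CPM against 51.4 and 40.8 CPM (difference 2.07 ± 0.24, edgeR adjusted p = 9.44e-05). For both genes the level in duct spots rose less than 2-fold between ages while the level in other spots fell by more. For the mean of both ages, Tcim turned to -0.14 without lymphoid-rich and muscle-rich spots.

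Among abundant genes the largest decreases were in Ly6d and B4galnt1, beside the lymphoid genes Cd52, Ighj4 and Glycam1. Ly6d, a surface protein of luminal cells and of B cell precursors, held 769.6 and 928 CPM in duct spots against 89.2 and 72.7 CPM in other spots at 3 months. At 18 months Ly6d held 239 and 344 CPM against 97.7 and 217 CPM. Its log2 fold change was 3.00 at 3 months and 0.69 at 18 months (difference -2.31 ± 0.32, edgeR adjusted p = 3.86e-04), and its level in the ducts of both older sections lay below that of both younger ones. B4galnt1, an enzyme of ganglioside synthesis, held 123 and 147 CPM in duct spots against 29.9 and 37.6 CPM in other spots at 3 months. At 18 months B4galnt1 held 188 and 133 CPM against 196 and 259 CPM, a difference of -2.41 ± 0.27 (edgeR adjusted p = 5.47e-05), while its duct levels overlapped between ages. Cd52, a surface glycoprotein of lymphocytes, held 68.8 and 90.1 CPM in duct spots against 117 and 146 CPM in other spots at 3 months. At 18 months Cd52 held 104 and 115 CPM against 764 and 1149.8 CPM.

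Many of these age differences changed with the other spots that were used. Of the 25 named genes with a called difference, 6 remained called when lymphoid-rich and muscle-rich spots were left out, Ckm, Tcim, Clmn, Oxtr, Cd52 and B4galnt1, all with a smaller difference than before. Tcim then had 1.68, Clmn 1.42 and Oxtr 0.95, while Cd52 had -0.87 in place of -2.26 and B4galnt1 -0.97 in place of -2.41. For Ckm, muscle transcripts remained among the other spots, as given above. The markers Wfdc18, Fcgbp, Wfdc2, Dsp, Krt17 and Plet1 lost the call with differences of 0.0692 to 0.58, and Ly6d lost it at -0.67. Glycam1 and Ighj4 lost it at -1.85 and -2.50, differences about as large as before, so a lost call does not always mean a smaller difference. Without 3 months replicate 2 the differences of Ly6d and Cd52 had edgeR adjusted p of 0.0858 and 0.103. For genes outside the naming rule the recomputed age differences are not given singly. Without lymphoid-rich and muscle-rich spots the number of junction genes called larger at 18 months went from 3 to 1. Pkp1 and Gjb2 thus did not both keep the call. The number called larger went from 4 to 2 in the myoepithelial list and from 3 to 2 in the secretory luminal list. Over all genes 449 were called without lymphoid-rich and muscle-rich spots, of which 128 were among the 657. Restricting both classes to spots above the 25th percentile of duct spot depth kept all 25 and raised the number to 3132 genes. At 18 months the cuts of 5067 and 2062 UMIs left 460 and 1893 other spots. Lymphoid-rich spots, with medians of 22792.5 and 17171.5 UMIs there, were not left out. The median of the lymphoid list at 18 months was then -4.87 in place of -4.15. A call kept among deep spots is thus no check on the part of lymphoid-rich spots. Leaving out a section leaves its age with 1, which is then assumed to vary like the other age. This gave 136 genes (without 3 months replicate 2), 249 (without 3 months replicate 1), 1309 (without 18 months replicate 2) and 1912 (without 18 months replicate 1). Of the genes marking ducts, 673 of the 740 called at both ages kept that call without lymphoid-rich and muscle-rich spots, and 602 to 675 of them when a section was left out.

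Levels were also laid out along the epithelial share itself, as a description, since the markers were chosen across a limit of the same share. Spots of at least 500 UMIs were grouped by their share of the 7 rule genes into none, under 0.1%, 0.1% to under 0.3%, 0.3% to under 0.5%, and 0.5% or more. As that choice would give, levels of the 12 strongest markers rose at every step in 45 of 48 combinations of gene and section. The exceptions were Krt17 in both older sections and Krt15 in 18 months replicate 2, and the last group of 18 months replicate 1 held 10 spots. Cldn3 had 5.18, 16.0, 90.1, 203 and 355 CPM over these groups in 3 months replicate 1 and 7.86, 14.6, 81.8, 246 and 389.6 CPM in 18 months replicate 2. Esr1 had 241, 246, 236, 291 and 263 CPM and 214, 71.1, 208, 179.9 and 188 CPM in the same sections, with no steady rise. Adipoq fell to 1411 and 559 CPM in the group of highest share. In the older sections the second group was lower than its neighbours in Adipoq, Esr1 and Col3a1.

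**Figure D5:**
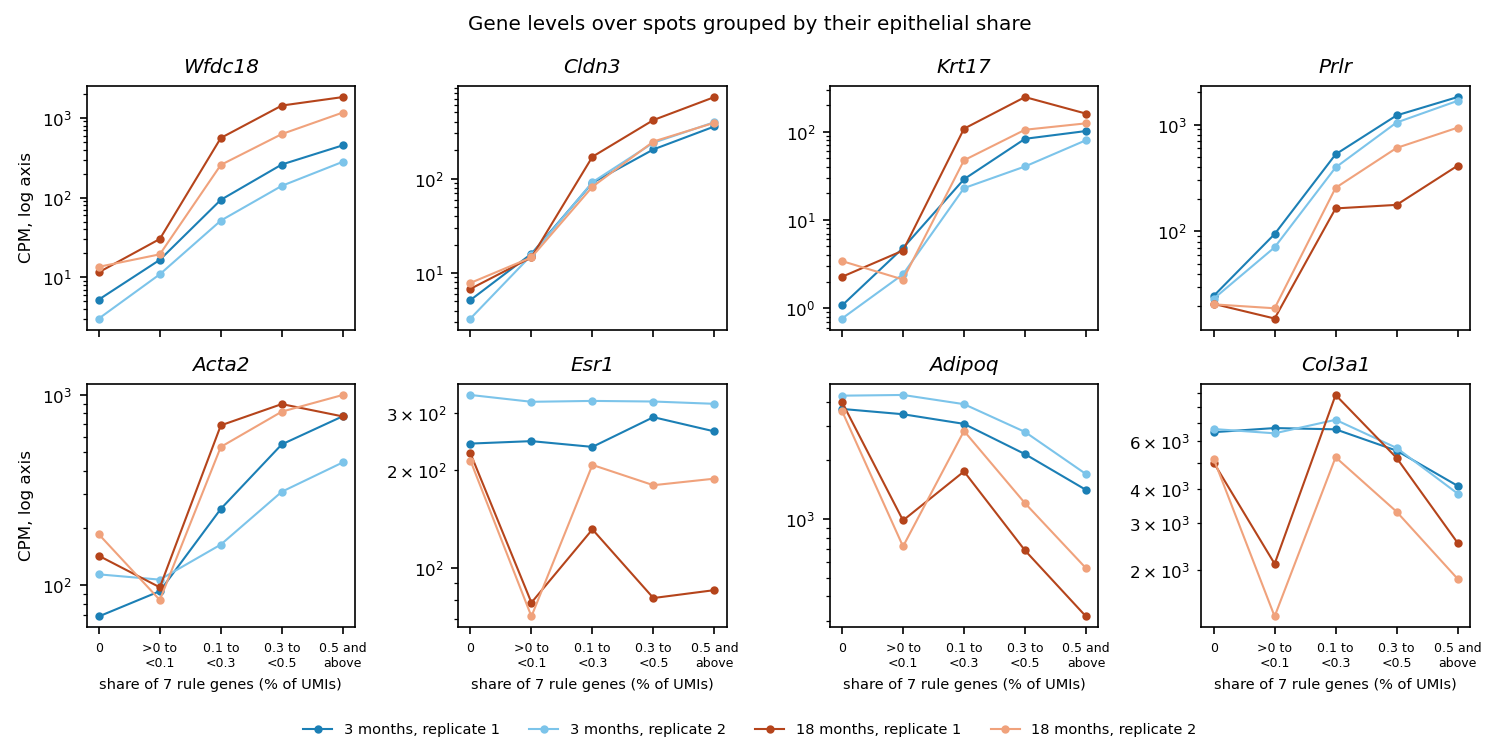
Level of 8 genes in CPM (log axes) over spots grouped by the share of their UMIs from the 7 rule genes (horizontal axis, %), 1 line per section. Wfdc18, Cldn3, Krt17, Prlr and Acta2 are highest in the groups at 0.3% and above, Adipoq is lowest in the last group, and Esr1 changes little at 3 months.

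Detection per spot was also compared with depth held equal. After every spot was thinned to 500 UMIs, the share of duct spots with a Wfdc18 UMI was 12.3 and 10.6% at 3 months and, at 18 months, 44.4 and 23.3%. The 95% exact binomial intervals were 7.71% to 18.4% and 6.51% to 16.1% at 3 months and 31.9% to 57.5% and 17.6% to 29.7% at 18 months, for counting error alone. In other spots the share was 0.879 and 0.556% at 3 months and, at 18 months, 1.10 and 1.47%. In thinned lymphoid-rich spots 1 of 694 had a UMI. Without thinning the share in duct spots was 89.5 and 76.7% at 3 months and, at 18 months, 95.2 and 71.8%. In other spots it was 13.6 and 6.67% at 3 months and, at 18 months, 5.75 and 5.21%. In the deeper lymphoid-rich spots it was 18.2 and 2.5% at 3 months and, at 18 months, 10.9 and 13.3%. The gene was therefore not absent there. For Cldn3 the thinned share was 6.17 and 17.3% at 3 months and, at 18 months, 17.5 and 12.9% in duct spots, against 0.855 and 0.821% at 3 months and, at 18 months, 0.665 and 0.602% in other spots. For Prlr it was 47.5 and 44.1% at 3 months and, at 18 months, 3.17 and 21.8% in duct spots, with 18 months replicate 1 the lowest.

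The authors' deposited table holds Moran's I, which is higher the more alike nearby spots are in a gene, and it gave a view of the same genes that does not use the duct rule. In the authors' deposited table Fcgbp scored 0.354 and 0.228 at 3 months and, at 18 months, 0.339 and 0.252, at ranks 161 and 339 at 3 months and, at 18 months, 88 and 48 within lists of 19308 to 19322 genes. Wfdc18 scored 0.287 and 0.177 at 3 months and, at 18 months, 0.280 and 0.206 in the authors' deposited table. Of 110 named genes in the authors' deposited table, 84 scored higher in both younger sections than in both older ones, which were shallower, and 1 scored lower in both. The same count over all genes was not made, so these numbers show nothing particular to the named genes. The hormone-sensing genes Prlr and Areg were among the 84, with 0.420 and 0.339 at 3 months and, at 18 months, 0.0271 and 0.131 for Prlr and 0.396 and 0.362 at 3 months and, at 18 months, 0.0875 and 0.107 for Areg in the authors' deposited table. Esr1 scored 0.0310 and 0.0888 at 3 months and, at 18 months, 0.0254 and 0.0157 in the authors' deposited table, low in all 4 sections.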

How the data were processed

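The data are UMI counts per gene and spot that the authors deposited for 4 sections, made with Space Ranger 2.0.0 per the file headers. The genome build was mm10 per the submitters' processing notes. The authors also deposited Moran's I, a score per gene and section, beside p-value columns that were not used. The sources used here do not give the probe set or the normalization before that score.

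Counts were summed over duct spots and over other spots of each section, which gave 8 sums. Genes were filtered for low counts by edgeR's filter, leaving 19188 of 19465, and fitted with edgeR 4.0.16 (TMM scaling, quasi-likelihood test, a term for each section and a duct term for each age, Benjamini-Hochberg adjustment over all genes tested, called at 0.05) in R 4.3.3. The residual degrees of freedom were 2, and edgeR's prior added 17.8, so p-values and SEs rest mostly on a spread shared across genes. The SE is the log2 fold change divided by the square root of the test's F value. CPM values are counts per 1000000 UMIs of the sum, with no further scaling. DESeq2 1.42.0, limma 3.58.1 (voom), library size alone, no filter, other choices of spots, thinning, a replicate block and leaving out each section were the alternatives. The fit was tested on simulated counts with known changes. Sums, maps and figures used Python 3.11.15 and its packages matplotlib 3.10.9, scipy 1.17.1, pandas 2.3.3 and numpy 2.4.6. Lymphoid-rich spots had at least 3 UMIs and 0.3% of UMIs from the lymphoid list, and muscle-rich and adipocyte-rich spots 3% from theirs.

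Genes named are the 12 with the largest mean effect among genes marking ducts at both ages with at least 100 CPM in duct spots, the 6 with the largest decrease with at least 100 CPM in other spots, up to 5 in each direction with the largest age difference, and from each list the 3 with the highest level in duct spots and up to 3 called members with the largest change. A few genes that this rule names are not reported here, but stay in the counts of their lists. The duct rule, the members and the lists were chosen with earlier results of these data known. Of the list genes, 10 could not be tested: Krt18, Csn1s2b, Btn1a1, Saa1, Saa2, Cxcl2, Krt79, Ccnb1 and Ccl21a were not among the genes of the matrices, and Csn1s1 was below the filter. The groups of epithelial share and 3 of the alternatives were chosen after seeing the data. The single-cell RNA and chromatin data were not used here.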

Additional observations from a re-analysis of the deposited data

Results flagged for a closer look

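Of the named genes, 25 had a duct effect that differed between ages by edgeR's test of the difference, 17 with a larger and 8 with a smaller log2 fold change at 18 months than at 3 months. The values below are the log2 fold change at 18 months minus that at 3 months. Among skeletal muscle genes the difference was Ckm 7.15, Myh4 6.87, Mylpf 5.11 and Acta1 4.10. Among the strongest duct markers it was Fcgbp 1.34, Wfdc2 1.23, Wfdc18 1.11, Dsp 1.08, Plet1 0.90 and Krt17 0.85. Other genes with a larger effect at 18 months were Tcim 2.40, Clmn 2.07, Oxtr 1.61, Sdc1 1.18, Wnt5b 1.06, Cnn1 0.89 and Notch3 0.82. Among genes of lymphoid tissue, immunoglobulin genes included, it was Ighd -1.77, Cd79b -1.85, Ltb -1.89, Glycam1 -2.05, Cd52 -2.26 and Ighj4 -2.31. The remaining decreases were Ly6d -2.31 and B4galnt1 -2.41. Of the 25, 6 kept the call without lymphoid-rich and muscle-rich spots among the other spots, some with a much smaller difference (Cd52 -0.87, B4galnt1 -0.97). Glycam1 (-1.85) and Ighj4 (-2.50) lost it with a difference of about the same size. All 25 kept it when both classes were held to deep spots, a cut that did not leave out lymphoid-rich spots.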

How the results depend on the processing

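Across the alternatives, 2006 recomputed values kept their direction and their side of the threshold, 77 were no longer called, 42 became called and 32 reversed. The cause was not tested in these cases, except that sums thinned to the smallest total tested fewer genes. Depth limits the older ducts most, where 63 duct spots gave 643750 UMIs.

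Against 740 genes higher and 569 lower in ducts at both ages, library size alone gave 1141 and 152, thinned sums gave 372 lower, duct spots of at least 0.5% gave 866 lower, and deep spots gave 293 lower. Of the 740, 740 kept the call with library size alone, 611 with DESeq2, 740 with voom and 487 when thinned. Against 6096 genes called for the mean of both ages, 4697 at 3 months, 3986 at 18 months and 657 for the age difference, DESeq2 gave 3110 at 3 months and 235 for the difference, and voom gave 418 for the difference. Without lymphoid-rich and muscle-rich spots 9508 were called for the mean and 7422 at 18 months, and without lymphoid-rich spots in either class 9532 and 7437. Thinned sums gave 3743 for the mean, 2282 at 3 months and 226 for the difference, and deep spots gave 3132 for the difference. Leaving out 1 section gave 3735 to 7065 for the mean, 1372 to 6889 at 3 months, 3234 to 4648 at 18 months, 136 to 1912 for the difference, 610 to 721 higher at both ages and 299 to 697 lower. Without 3 months replicate 2, 272 of the 569 lower genes kept the call. The planned limit of 1% could not be fitted, since 5 duct spots reached it.

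Replicate numbers were shared by the ages, but the deviations of the duct effect in same-numbered sections did not correlate (r = -0.0226 over 19188 genes). Effects shared by the duct and other spots of a section cancel in this measure. It cannot say whether the numbers pair sections by animal, slide or run. With a replicate block 736 genes were higher and 579 lower at both ages, 5958 were called for the mean, 4482 at 3 months, 3957 at 18 months and 777 for the difference.

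Reversed mean effects with library size alone were Col1a1 0.0842, Hspg2 0.0891, Pdgfrb 0.29, Prx 0.27, Sbsn 0.10 and Xbp1 0.15. Among deep spots they were Col1a1 0.31, Esr1 0.14, Hspg2 0.23, Pdgfrb 0.0521, Prx 0.20 and Sbsn 0.39, and B4galnt1 was -0.0710. Sbsn was 0.14 in thinned sums. Without lymphoid-rich and muscle-rich spots Col1a2 was -0.42, Dst -0.0221, Jup -0.27 and Tcim -0.14, without lymphoid-rich spots in either class they were -0.42, -0.0239, -0.27 and -0.14, and the age difference of Acta1 was -0.35 in the first. Col1a2 was -0.02 by the luminal rule and -0.31 in duct spots of at least 0.5%. Leaving out 1 section gave -0.0282 to 0.16 for Col1a2, -0.00308 to 0.70 for Mki67, -0.49 to 0.0115 for Xbp1, -0.17 to 0.0143 for Pdgfrb and -0.16 to 0.0588 for Prx, with the reversed end in 18 months replicate 1 for Col1a2, Mki67, Xbp1 and Pdgfrb (Pdgfrb also in 3 months replicate 1), and in replicate 2 of both ages for Prx.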
